A study of Mus musculus with 6 samples.

Results

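The machinery that folds chromosomes into loops was followed in haematopoietic stem and progenitor cells after deletion of one of its parts, Ctcf. The genes described are Ctcf, the cohesin ring genes Smc1a, Smc3, Rad21, Stag1 and Stag2, the cohesin loader genes Nipbl and Mau2, and the regulators Pds5a and Pds5b. These 10 genes were chosen by name, out of 22180 genes with a probe set of a single gene symbol, and each of the 10 had 1 such probe set, so that no second probe set of a member could be set beside it. The cells were LSK cells, the bone marrow fraction without lineage markers that carries Sca-1 and high c-Kit and holds the blood stem cells and earliest progenitors. They were sorted from male mice, 8 weeks old, of 2 genotypes: Ctcf conditional KO (Ctcf cKO, 3 arrays), in which deletion of Ctcf is inducible by tamoxifen, and WT (3 arrays). Mice received 2 mg of tamoxifen daily for 3 days, and cells were taken 24 hours after the last dose, by the treatment text that both groups share. The design text also speaks of CreER mice, but no label states whether the WT mice carried that recombinase, which promoter drives it and which exons it removes. Arrays are labelled biological replicates, and nothing states whether cells of several mice were pooled.

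Cohesin is a ring-shaped complex that holds DNA. Its SMC1A and SMC3 arms are closed by RAD21, and either STAG1 or STAG2 docks on RAD21. NIPBL and MAU2 load the ring and let it extrude loops of DNA, PDS5 proteins help to pause or release it, and CTCF, a zinc finger protein bound to its own sequence, stops the moving ring at loop anchors. The same ring holds sister chromatids together from DNA replication until mitosis, so its genes serve dividing cells as well as loop formation.

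The arrays had median log2 levels over all probe sets between 5.99 and 6.07. The submitters' quantile normalization makes such medians nearly equal, so they do not measure the quality of the arrays. The number of arrays limits the precision. Of the markers of LSK cells, 8 of 10 were measured. Kit, the receptor used in the sort, had a log2 level of 10.13, 10.12 and 10.21 in Ctcf cKO and 10.26, 10.65 and 10.22 in WT. The Kit groups did not overlap, with a difference of -0.22 (95% interval -0.53 to 0.08). Cd34 lay between 11.78 and 12.04 in Ctcf cKO and between 11.93 and 12.02 in WT, while Ly6a, which encodes Sca-1, was not analysed here. Differences were negative for 7 of the 8 markers, among them Flt3 at -0.42 and Mecom at -0.28, and positive for Slamf1 at 0.33, whose groups did not overlap; none passed the test (limma adjusted p of 0.532 or more). Of the markers of other cells, Ighm, the antibody heavy chain of B cells, lay between 12.78 and 13.59 in Ctcf cKO and between 13.54 and 14.04 in WT. Ighm had 7 probe sets with a single symbol and Mecom 2, and the values given are those of the brightest. The T cell marker Cd3e lay between 5.66 and 5.88 in Ctcf cKO and between 5.79 and 6.16 in WT. Of the 6 T and NK cell markers, 4 had negative differences and 2 positive. Among the positive ones was Nkg7 at 0.68, whose groups did not overlap (limma adjusted p = 0.429). Nkg7 was the only 1 of the 6 brighter than the median gene, so the signs of the others rest on low levels. In such bulk RNA, fewer cells of a type and less RNA per cell cannot be told apart.

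Promoter sequences are given for 3 genes described below, from RefSeq's table of build GRCm38.p6. Each reads 5′ to 3′ on the strand of its gene from 250 bases before to 50 bases after the annotated start. The first is that of Ctcf, the deleted gene (chr8:105636288-105636587, plus strand). The second is that of Gm5914, a long non-coding RNA of the opposite strand whose start lies inside Ctcf (chr8:105637301-105637600, minus strand). In both, capitals mark CCCTC, the pentamer CTCF is named for, or its reverse complement GAGGG. The third is that of Pds5b (chr5:150673577-150673876, plus strand), where capitals mark a match to AGGGGGC, letters of the core that CTCF recognises.
Ctcf: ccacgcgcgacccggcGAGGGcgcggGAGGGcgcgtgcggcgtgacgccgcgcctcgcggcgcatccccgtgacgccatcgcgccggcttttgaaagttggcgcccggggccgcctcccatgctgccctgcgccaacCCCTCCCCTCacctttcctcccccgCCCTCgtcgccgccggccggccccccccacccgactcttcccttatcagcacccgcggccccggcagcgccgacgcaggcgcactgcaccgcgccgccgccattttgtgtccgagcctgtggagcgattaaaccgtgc
Gm5914: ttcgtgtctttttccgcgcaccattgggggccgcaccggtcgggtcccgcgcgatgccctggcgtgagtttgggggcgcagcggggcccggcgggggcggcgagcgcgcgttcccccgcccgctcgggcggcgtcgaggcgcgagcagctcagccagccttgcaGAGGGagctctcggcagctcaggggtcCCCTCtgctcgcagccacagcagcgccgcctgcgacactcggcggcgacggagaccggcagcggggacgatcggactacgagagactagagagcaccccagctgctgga
Pds5b: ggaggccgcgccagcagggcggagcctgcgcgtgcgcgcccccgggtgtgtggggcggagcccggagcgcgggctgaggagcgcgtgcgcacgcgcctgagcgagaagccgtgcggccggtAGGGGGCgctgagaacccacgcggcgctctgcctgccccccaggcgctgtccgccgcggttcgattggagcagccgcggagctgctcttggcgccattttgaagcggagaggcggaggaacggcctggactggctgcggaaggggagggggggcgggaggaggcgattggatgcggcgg
CCCTC on either strand, overlapping matches included, was found in 66.0% of the 32851 promoters of the table and in all 8 promoters listed for 7 of the members. The Ctcf promoter held 5 matches, where the median promoter held 1. The longer motif, searched on both strands, was found in 10.6% of all promoters and in 1 of the 8, that of Pds5b. Matches are given as a description of the letters only.

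Ctcf was lower on every Ctcf cKO array than on every WT array. Its log2 level was 7.58, 7.78 and 7.86 in Ctcf cKO and 8.35, 8.59 and 8.73 in WT, so the gap between the groups was wider than the range within either of them. The mean of the Ctcf cKO arrays was 56.7% of that of WT, with a 95% interval of 45.9% to 70.0% (log2 difference -0.82, SE 0.13). Since the deleted exons are not stated, this value may include signal of probes outside them. By p-value Ctcf stood at place 42 of all genes. The adjusted p of limma over all genes was 0.104, which missed the threshold of 0.05, and exact permutation of the 6 arrays gave a two-sided p of 0.1, below which no split of 3 and 3 can go. With any array left out the difference lay between -0.92 and -0.74.

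No member passed the test over all genes. With the threshold at an adjusted p of 0.05, limma called 0 of the 10 members, against 16 of 22180 genes (0.0721%). At an unadjusted p under 0.05 limma had 2 of 10 members, against 8.11% of all genes. These were Ctcf, among the 3.08% of genes that were lower at this threshold, and Stag1, among the 5.03% that were higher. Ctcf was also the 1 member of 10 whose groups did not overlap, against 13.3% of all genes in either direction and 5.32% lower in Ctcf cKO. Differences were positive for 7 of the other 9 members and negative for 2, where 54.7% of all genes were positive and 45.3% negative. The median log2 difference of these 9 was 0.20, beside 0.02 over all genes. All 10 members were brighter than the median gene, while all genes include the dimmer ones. With the arrays centred on the brighter genes, Stag2, the middle one of the 9, differed by 0.15 rather than 0.20.

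**Figure D1:**
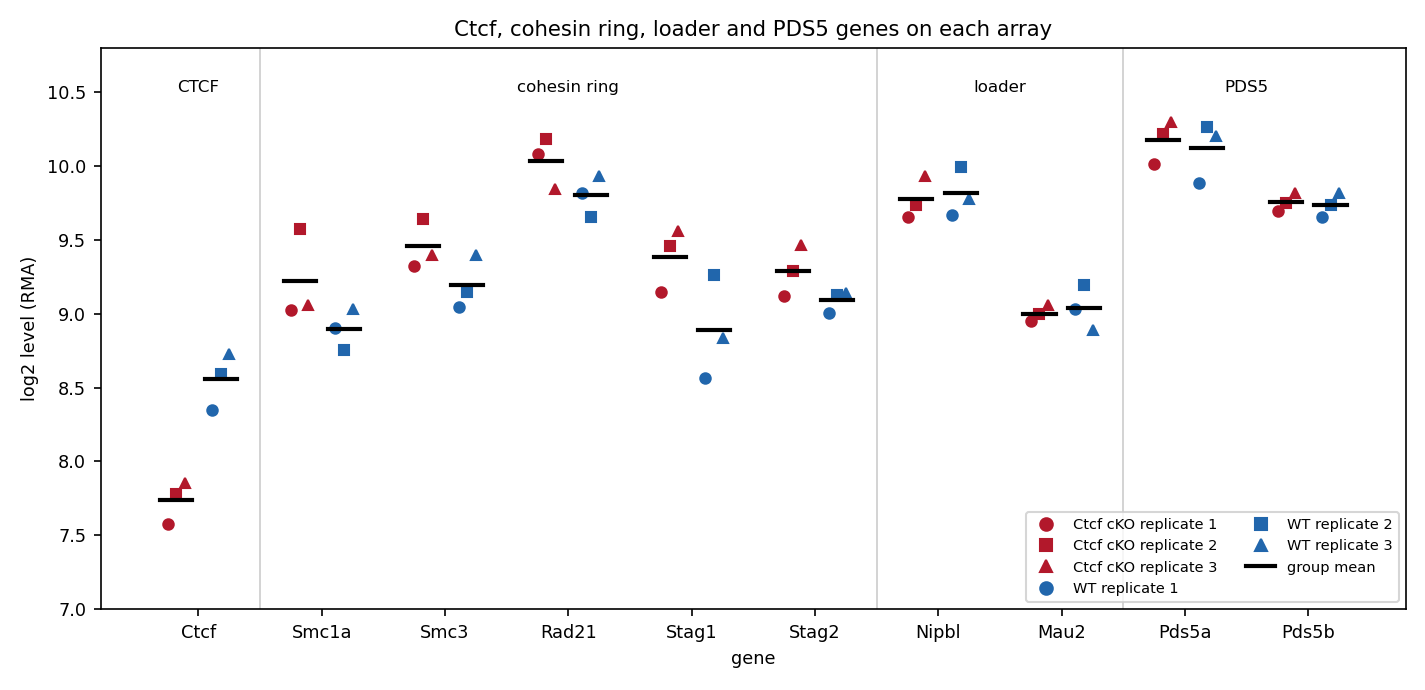
Log2 level (y axis, RMA units) of the 10 genes (x axis) on each of the 3 Ctcf cKO arrays (red, left) and 3 WT arrays (blue, right), with bars at group means. Levels of different genes come from different probes and are not comparable in height; the Ctcf groups, at 7.58 to 7.86 in Ctcf cKO and 8.35 to 8.73 in WT, are the ones that do not overlap.

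The 5 ring genes all had positive differences, and their groups overlapped. Stag1, one of the alternative docking subunits, had the widest difference. Its log2 level was 9.15, 9.46 and 9.56 in Ctcf cKO and 8.56, 9.26 and 8.84 in WT. WT replicate 2 reached above the lowest Ctcf cKO array, while the other WT arrays stayed below all of them. The log2 difference was 0.50 (SE 0.19, 95% interval 0.07 to 0.93, limma adjusted p = 0.556), and with 1 array left out it lay between 0.34 and 0.69. Stag2, the alternative to Stag1, had a log2 level of 9.121, 9.290 and 9.469 in Ctcf cKO and 9.004, 9.130 and 9.140 in WT. Only the lowest Ctcf cKO array fell among the WT arrays, but the difference of 0.20 (SE 0.12, limma adjusted p = 0.725) had an interval from -0.07 to 0.48 and was 0.11 without Ctcf cKO replicate 3.

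Because either STAG protein completes the ring, the level of Stag2 relative to Stag1 was taken within each array, where any scaling of the array cancels. Stag2 minus Stag1 was -0.03, -0.17 and -0.09 on the log2 scale in Ctcf cKO and 0.44, -0.13 and 0.30 in WT. The Ctcf cKO arrays were close to each other and WT replicate 2 lay among them. The difference of -0.30 had an exact two-sided permutation p of 0.3, where 0.1 is the smallest possible, so an unequal change of the paralogues was not shown. It was -0.47 without WT replicate 2 and -0.18 without WT replicate 1, the ends of its range with 1 array left out.

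Smc1a, an arm of the ring, had a log2 level of 9.02, 9.57 and 9.06 in Ctcf cKO and 8.91, 8.76 and 9.03 in WT. The high value of Ctcf cKO replicate 2 carried much of the difference of 0.32 (SE 0.16, 95% interval -0.05 to 0.69), which was 0.14 without that array. Smc3, the other arm, had 9.32, 9.65 and 9.40 in Ctcf cKO and 9.04, 9.15 and 9.40 in WT. Here too replicate 2 was the highest Ctcf cKO array, and the difference was 0.26 (SE 0.14, 95% interval -0.05 to 0.57), or 0.17 without that array. Rad21, the subunit that closes the ring and is cut when chromatids part, had 10.08, 10.19 and 9.85 in Ctcf cKO and 9.82, 9.65 and 9.93 in WT. Ctcf cKO replicate 3 lay below the highest WT array, and the difference was 0.24 (SE 0.13, 95% interval -0.06 to 0.53). The limma adjusted p was 0.663 for Smc1a, 0.673 for Smc3 and 0.698 for Rad21. As a share of the WT level, the intervals ran from 96.1% to 144% for Rad21, from 96.7% to 149% for Smc3 and from 96.6% to 162% for Smc1a.

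The loader and PDS5 genes lay close to WT. Nipbl, the loader subunit that drives extrusion, had a log2 level of 9.66, 9.74 and 9.94 in Ctcf cKO and 9.67, 10.00 and 9.78 in WT. Its partner Mau2 had 8.952, 8.995 and 9.057 in Ctcf cKO and 9.032, 9.196 and 8.888 in WT. For both genes the Ctcf cKO arrays fell within or next to the WT range, with WT replicate 2 the highest of all. The differences were -0.04 for Nipbl (SE 0.13, 95% interval -0.33 to 0.25) and -0.04 for Mau2 (SE 0.11, 95% interval -0.30 to 0.22). These intervals correspond to 79.6% to 119% of the WT level for Nipbl and 81.3% to 117% for Mau2, so smaller changes in either direction could not be detected.

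Pds5a, which acts in both holding and releasing the ring, had a log2 level of 10.02, 10.22 and 10.30 in Ctcf cKO and 9.89, 10.27 and 10.21 in WT. Pds5b, its paralogue, had 9.70, 9.75 and 9.82 in Ctcf cKO and 9.65, 9.74 and 9.82 in WT. The arrays of both groups were interleaved for each gene, and Pds5b had the smallest SE of the 10 members. The differences were 0.06 (SE 0.14, 95% interval -0.25 to 0.37) for Pds5a and 0.02 (SE 0.10, 95% interval -0.21 to 0.26) for Pds5b. Within arrays Pds5b minus Pds5a was -0.32, -0.47 and -0.49 in Ctcf cKO and -0.23, -0.53 and -0.39 in WT, a difference of -0.04 (exact two-sided permutation p = 0.7).

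**Figure D2:**
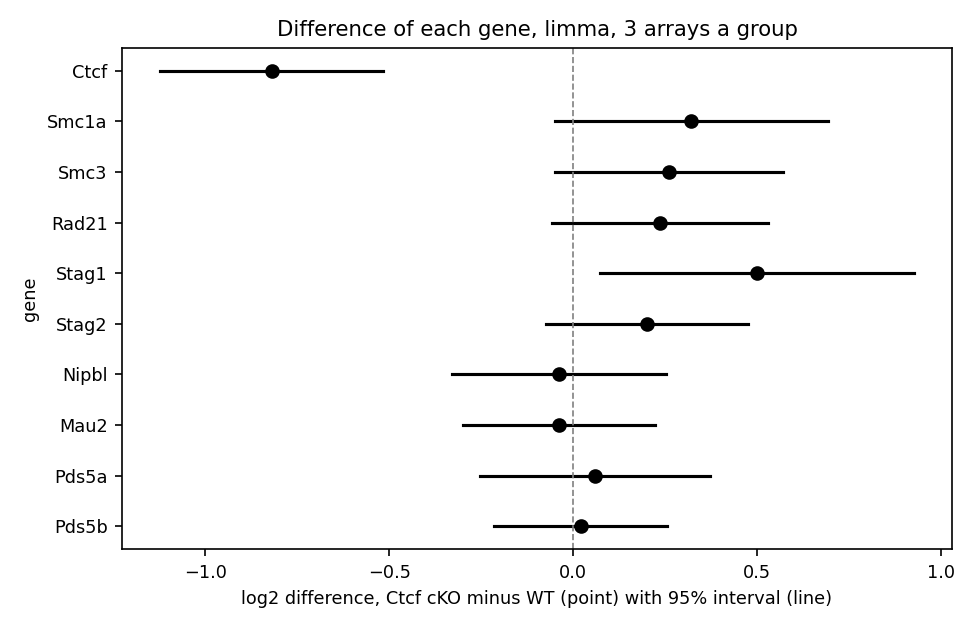
Log2 difference, Ctcf cKO minus WT (x axis), of each of the 10 genes (y axis), with points at limma's estimates from 3 arrays a group and lines for 95% intervals. The interval of Ctcf, -1.12 to -0.52, lies below 0, that of Stag1, 0.07 to 0.93, above it, and those of the other 8 genes cross 0.

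The level of Ctcf relative to the other members was also taken within each array and compared between the groups. The log2 level of Ctcf minus the median level of the other 9 members was -1.75, -1.87 and -1.70 in Ctcf cKO and -0.69, -0.67 and -0.67 in WT. The arrays of each group were close together. The means of the groups differed by -1.09, beside -0.82 for Ctcf itself and a median difference of 0.20 for the other 9. No test is given for Ctcf relative to the others, since the members were chosen with results known.

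Around Ctcf, 1 of its 10 nearest measured genes fell, where 0.0721% of all genes were called in either direction. The neighbours were the 5 genes measured on either side in RefSeq gene order. Gm5914, the non-coding RNA whose promoter is printed above, had a log2 level of 7.04, 6.61 and 6.83 in Ctcf cKO and 8.14, 7.90 and 7.81 in WT. All Ctcf cKO arrays were below all WT arrays. It fell by 1.13 on the log2 scale (SE 0.14), to 45.8% of WT with a 95% interval of 36.5% to 57.3% (limma adjusted p = 0.0459). The call was lost in each of the 6 fits with 1 array left out (adjusted p between 0.0781 and 0.213), where the difference lay between -1.23 and -1.02. Its 2 annotated starts lie 812 and 936 bases downstream of the start of Ctcf, on the opposite strand, so the genes overlap there. Whether probes of either gene lie in the overlap is not given in the sources used here.

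Carmil2, which encodes a regulator of actin capping proteins and is the next measured gene on the other side of Ctcf, had 8.14, 8.17 and 8.38 in Ctcf cKO and 8.60, 8.71 and 8.57 in WT. The groups did not overlap, as for 2 of the 10 neighbours, both lower, against 5.32% of all genes. The difference was -0.40 (SE 0.11, 95% interval -0.65 to -0.14), which missed the threshold (limma adjusted p = 0.405), and it lay between -0.47 and -0.35 with 1 array left out. The other 8 neighbours lay between -0.16 for Atp6v0d1, a subunit of the vacuolar proton pump, and 0.20 for Enkd1, with overlapping groups. Among them Acd, a telomere protein gene next beyond Carmil2, differed by -0.06 (95% interval -0.33 to 0.22).

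**Figure D3:**
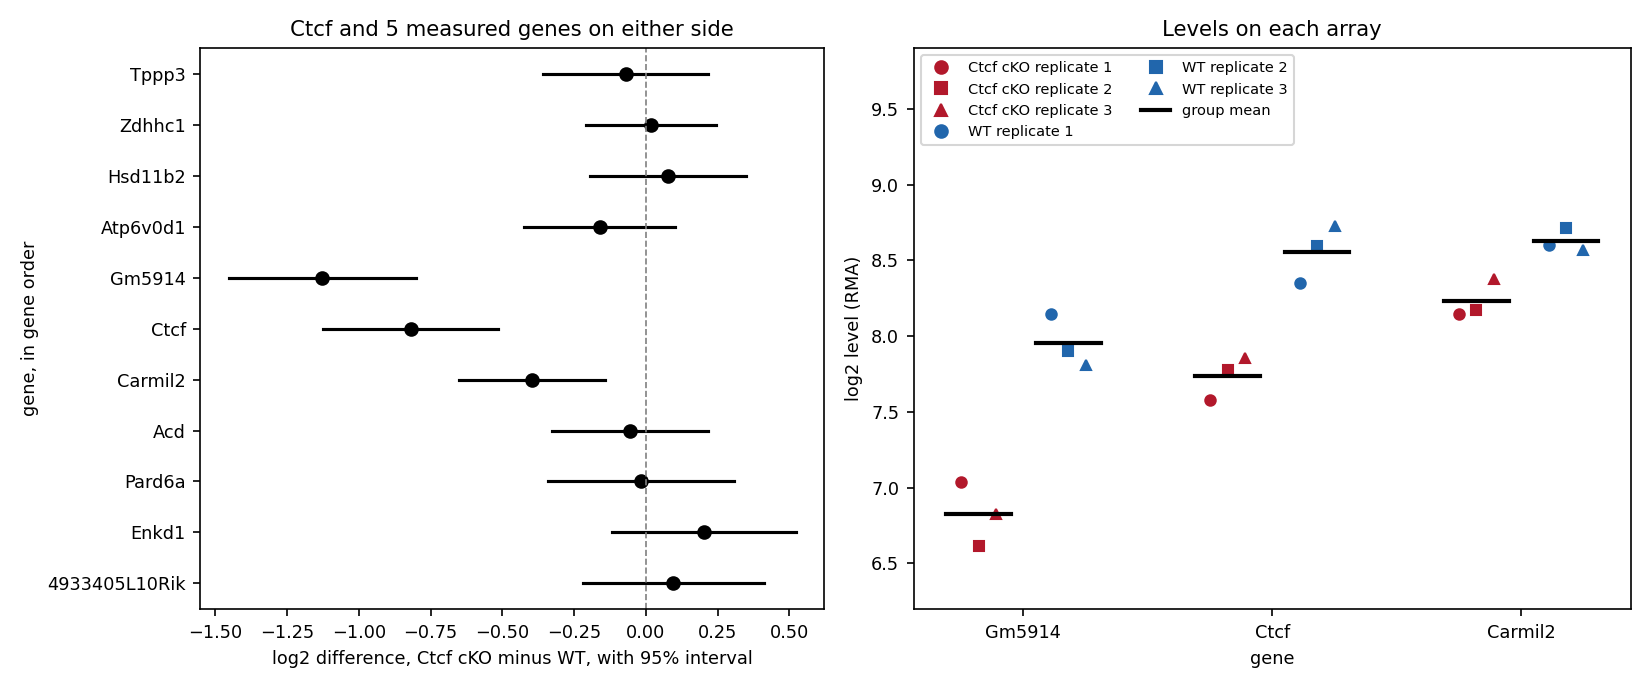
Left, log2 difference with its 95% interval (x axis) of Ctcf and the 5 measured genes on either side, in gene order (y axis); right, log2 level on each Ctcf cKO array (red) and WT array (blue) of Gm5914, Ctcf and Carmil2, with bars at group means. The intervals of Gm5914, Ctcf and Carmil2 lie below 0, and those of the other 8 genes cross it.

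Genes that act on cohesin after loading were taken as a list of 10, all measured. No gene passed; differences were positive for 8 and negative for 2, and their median was 0.34, beside 0.02 over all genes. Cdca5, which encodes sororin, the protector of cohesion between sister chromatids, differed by 0.51 (SE 0.19, limma adjusted p = 0.552), with 8.09, 8.42 and 7.96 in Ctcf cKO and 7.67, 7.29 and 7.98 in WT. WT replicate 3 lay above the lowest Ctcf cKO array. Espl1, the protease separase that cuts RAD21, differed by 0.39 and Pttg1, its inhibitor securin, by 0.30. The negative ones were Esco1, an acetyltransferase that locks SMC3, at -0.09 and Hdac8, the deacetylase that reverses this, at -0.07. Wapl, which opens the ring and limits the length of loops, had 8.76, 9.20 and 9.08 in Ctcf cKO and 8.56, 8.91 and 8.95 in WT, a difference of 0.21 with overlapping groups (95% interval -0.15 to 0.56); it is named outside the rule, after its value was seen.

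The related SMC complexes had positive differences throughout, and no gene of them passed. In the 5 lists of related genes together, 5 of 42 genes had groups that did not overlap, all higher in Ctcf cKO, against 13.3% of all genes in either direction and 7.96% higher. Condensin compacts mitotic chromosomes, and all 7 measured genes of 8 were positive, with a median of 0.42. Smc2, an arm of condensin, had 9.30, 9.41 and 9.23 in Ctcf cKO and 8.82, 8.40 and 9.18 in WT, groups that did not overlap (difference 0.51, SE 0.18, limma adjusted p = 0.542). Ncaph differed by 0.52 and Ncapd2 by 0.50, with WT replicate 2 the lowest array for all 3 genes. The SMC5/6 complex serves DNA repair and replication, and all 6 of its genes were positive, with a median of 0.26. Smc5 differed by 0.31 (SE 0.12, limma adjusted p = 0.580) and Nsmce2, a SUMO ligase of the complex, by 0.25 (SE 0.10, limma adjusted p = 0.583), both with groups that did not overlap, and Smc6 by 0.31 with overlap.

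The germ line paralogues of the machinery had small differences apart from Stag3, but only 2 of the 5 were brighter than the median gene. Stag3, the STAG protein of meiotic cohesin, had 7.03, 6.87 and 6.89 in Ctcf cKO and 6.83, 6.62 and 6.49 in WT. The groups did not overlap, and the difference was 0.28 (SE 0.12, limma adjusted p = 0.610). Ctcfl, the testis paralogue of Ctcf, had 5.55, 5.70 and 5.45 in Ctcf cKO and 5.46, 5.60 and 5.62 in WT, a difference of 0.00 (95% interval -0.25 to 0.26). Rec8 differed by 0.10 and Rad21l, both meiotic counterparts of Rad21, by -0.03, and Smc1b by 0.00. Ctcfl, Smc1b and Rad21l had WT means of 5.56, 4.83 and 4.03, below the median gene at 6.29. At such levels a difference near 0 does not show that a gene was expressed and unchanged.

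Factors that partner CTCF or hold loops by other means, 14 measured of 16, were balanced, 7 differences being positive and 7 negative, a median of 0.00 and none past the threshold. Patz1, a zinc finger factor, differed by 0.21 (SE 0.11) with groups that did not overlap, Parp1 by 0.17 and Zbtb33, which encodes the methyl-DNA binder Kaiso, by 0.13. On the negative side were Ldb1, a bridging cofactor of enhancer loops, at -0.18 (SE 0.12), Adnp at -0.11 and Ddx5 at -0.10. Ddx5 had the largest spread of the list, between 10.51 and 11.26 in Ctcf cKO and between 10.47 and 11.75 in WT.

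**Figure D4:**
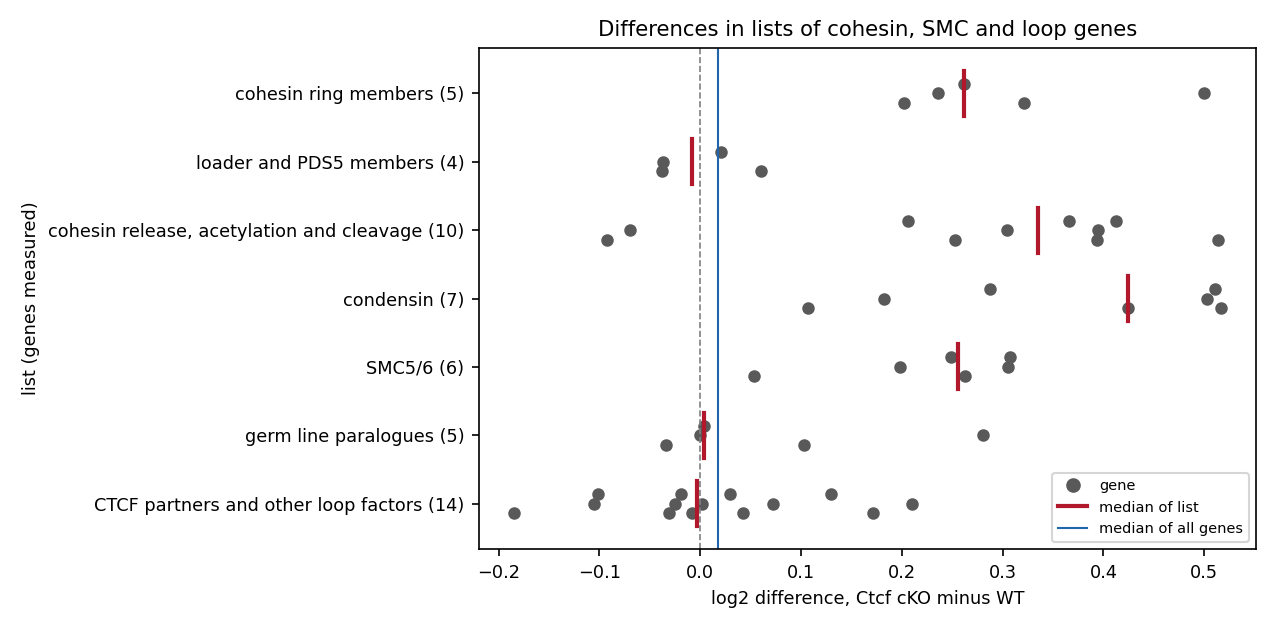
Log2 difference, Ctcf cKO minus WT (x axis), of single genes (grey points) in 7 lists (y axis, with the number of genes measured), with the median of each list in red and that of all genes, 0.02, in blue. The medians of condensin (0.42), genes acting after loading (0.34), the ring (0.26) and SMC5/6 (0.26) lie right of it, and no gene shown passed the test.

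Markers of cycling cells had positive differences, as the ring genes did, and no marker passed the test (limma adjusted p of 0.508 or more). All 14 measured markers of 15 had positive differences with a median of 0.53, and their mean log2 level was 9.92, 10.01 and 9.69 in Ctcf cKO and 9.40, 8.86 and 9.78 in WT. WT replicate 2 was the lowest and WT replicate 3 lay above Ctcf cKO replicate 3. The mean of the 5 ring genes was 9.34, 9.63 and 9.47 in Ctcf cKO and 9.07, 9.19 and 9.27 in WT. Every Ctcf cKO array was above every WT array for the ring. Without WT replicate 2 the difference was 0.31 for the mean of the ring, against 0.30 with it. That of the cycling markers was 0.28 against 0.52 and that of condensin 0.25 against 0.36. WT replicate 2 was the lowest array for the cycling markers and for condensin, but not for the ring. Leaving it out therefore had to narrow the differences of those lists. The ring genes did not move alike when that array was left out. Stag1 went from 0.50 to 0.69 and Stag2 from 0.20 to 0.22. Smc1a went from 0.32 to 0.25, Smc3 from 0.26 to 0.24 and Rad21 from 0.24 to 0.16.

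The mean of the 4 loader and PDS5 genes, by contrast with these lists, was 9.58, 9.68 and 9.78 in Ctcf cKO and 9.56, 9.80 and 9.67 in WT, with interleaved arrays. Markers of other cells had differences as well, though none passed the test (limma adjusted p of 0.104 or more). The 5 measured myeloid progenitor markers were all positive (mean difference 1.06, array means between 11.06 and 11.59 in Ctcf cKO and between 9.97 and 10.64 in WT), and all 6 measured B and plasma cell markers of 7 were negative (mean difference -0.69, array means between 9.47 and 10.35 in Ctcf cKO and between 10.06 and 11.11 in WT). Of the 7 neutrophil and monocyte markers 5 were negative and 2 positive, with array means between 7.34 and 7.90 in Ctcf cKO and between 7.63 and 8.69 in WT. Among them Ngp, a neutrophil granule protein gene, had 8.37, 8.01 and 7.46 in Ctcf cKO and 11.49, 9.08 and 10.59 in WT, a difference of -2.44 (SE 0.52, limma adjusted p = 0.241). Its values were lower in every Ctcf cKO array than in any WT array. The part of cycling or of other cells in the levels of the ring genes was not tested.

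**Figure D5:**
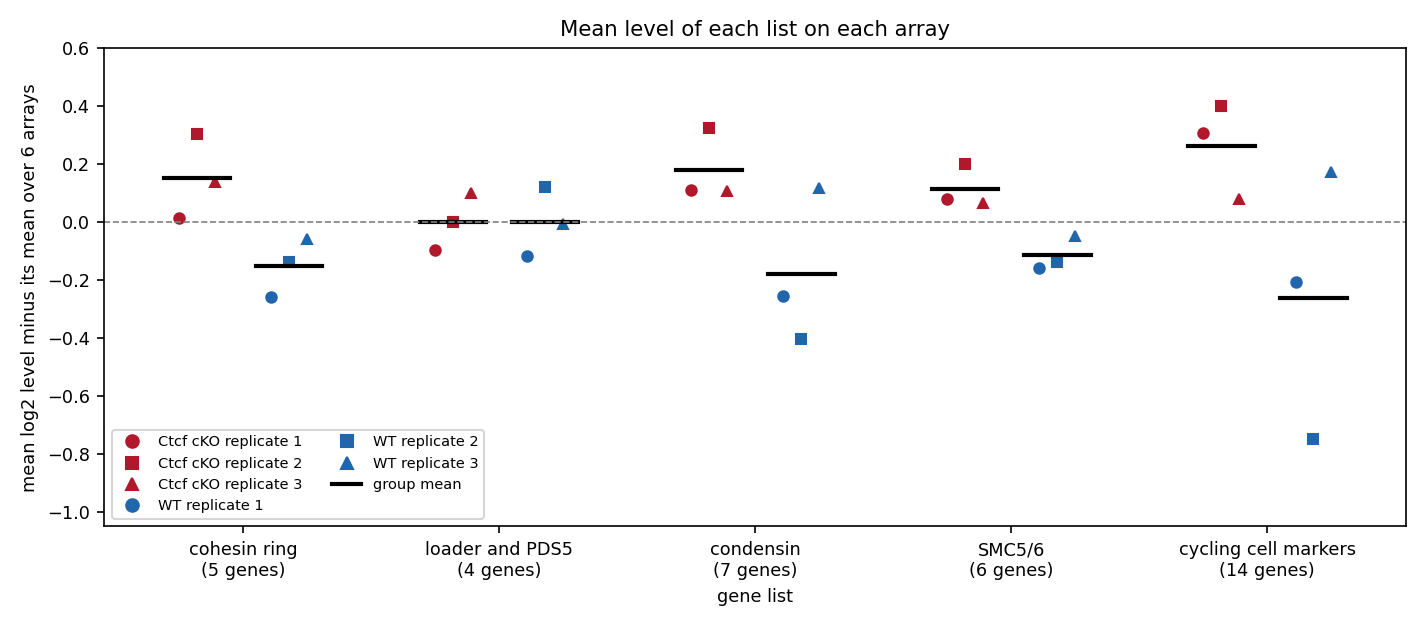
Mean log2 level of each gene list on each array, less its own mean over the 6 arrays (y axis), for 5 lists (x axis), with Ctcf cKO arrays in red, WT arrays in blue and bars at group means. The ring and SMC5/6 arrays of Ctcf cKO lie above those of WT, the loader and PDS5 arrays are interleaved, and WT replicate 2 is the lowest array for condensin and for the cycling markers.

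The genes most like Ctcf in their course over the 6 arrays were sought by the root mean square distance between log2 values centred on each gene's mean, among 11089 genes brighter than the median gene. The 5 closest were 9930111J21Rik2, Ide, which encodes the insulin-degrading enzyme, Abhd14b, Rnf213, a ubiquitin ligase gene, and Tspan6, a tetraspanin gene, at distances of 0.15 to 0.17, where the median gene was at 0.47. Ide, for example, had 9.27, 9.70 and 9.65 in Ctcf cKO and 9.93, 10.48 and 10.22 in WT. They were picked for being lower where Ctcf is lower, so their differences, between -0.69 and -0.58, are a description. The other members stood between 0.41 for Nipbl and 0.68 for Stag1.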

How the data were processed

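The deposited table gives log2 values of 41345 probe sets on 6 Affymetrix Mouse Gene 2.0 ST arrays, made by the authors with RMA (background correction, quantile normalization, probe summary) in the R package oligo, per the submitters' processing notes; neither versions, nor the summary level, nor a build are named. GEO's platform annotation gave 1 symbol for 23521 probe sets, and the brightest by mean over all arrays stood for each of 22180 genes. limma 3.58.1 in R 4.3.3 fitted Ctcf cKO against WT (lmFit, eBayes, group as the one term), with Benjamini-Hochberg adjustment over all genes and no filter. Single values were tested by exact permutation of 3 against 3. Replicate numbers were not taken as pairs, and the labels do not state whether they pair the samples. Members and lists were chosen with earlier results of these data known. Of each list without a called gene, up to 3 genes a direction with the smallest p were named; other genes named are markers and examples given after their values were seen. Some listed genes are not analysed here.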

Additional observations from a re-analysis of the deposited data

How the results depend on the processing

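Ctcf kept a negative difference in all 13 alternatives, between -0.92 and -0.74, with limma adjusted p between 0.0574 and 0.318, and the 5 ring genes kept positive differences. Of these 13, 1 kept only genes brighter than the median gene, which left out Haspin, Ctcfl, Smc1b, Rad21l and Nsmce3. Among the genes tested in each of the 13, limma called 0 of the 10 members and 0 of the 42 other SMC and loop genes. At an unadjusted p under 0.05 it had 2 of the 10 members and 7 of the 42 others. The 7 were all higher in Ctcf cKO. Of all genes, 8.11% passed this threshold in either direction and 5.03% were higher. Genes called in all numbered 25 with trend and robust settings, 1799 at an unadjusted p under 0.05 and between 0 and 8 with 1 array left out (0 without Ctcf cKO replicate 1). With the replicate number as a block the count was 7, Ctcf differed by -0.82 and Gm5914 had a limma adjusted p of 0.0618. Deviations of same-numbered arrays correlated at 0.47, 0.03 and -0.25. Arrays of different numbers were not compared, so these values cannot decide on pairing. The numbers were not taken as pairs because the labels do not state that they pair the samples. Signs turned for Nipbl with array weights (0.015), for Pds5b with a further quantile normalization (-0.039) and centring on brighter genes (-0.036), and with 1 array left out for Nipbl (-0.12 to 0.052), Mau2 (-0.11 to 0.041), Pds5a (-0.058 to 0.14), Pds5b (-0.021 to 0.062) and Pds5b minus Pds5a (-0.11 to 0.036); the cause was not tested. No group had over 3 arrays, so no search for outlying arrays was made.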
